A study of Rattus norvegicus with 24 samples.

Results

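The genes examined here encode the constitutive proteasome, the protease that degrades ubiquitin-tagged proteins in every cell. They were chosen by symbol: each gene of the array annotation with a single symbol starting with Psma, Psmb, Psmc or Psmd and a digit, without the immunoproteasome genes Psmb8, Psmb9 and Psmb10. The rule took 34 of 14201 genes. Of these, 13 are subunits of the core particle, 17 are subunits of its cap and 3 (Psmd5, Psmd9 and Psmd10) are factors that help to assemble the cap. The last, Psmc3ip, matches by its symbol, encodes a meiotic recombination protein and is described apart. Psmb6 has no value, because its probe set is shared with Psmb6l1. The expression levels come from liver and spleen of 12 male wild-type Sprague-Dawley rats of 46 to 49 days, hybridised on 1 Affymetrix rat array per organ, 24 arrays in all. Rats received cyclophosphamide at 40 mg/kg/day by mouth for 5 days, or vehicle, and were caged with or without a wood stick. Each of the 4 groups (vehicle without wood, vehicle with wood, drug without wood, drug with wood) held 3 rats. Cyclophosphamide is an alkylating cytostatic drug that crosslinks DNA and is toxic to dividing blood-forming and lymphoid cells.

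The proteasome consists of a barrel-shaped core and a regulatory cap. The outer rings of the core are built from alpha subunits (Psma genes) that gate the entry, and the inner rings from beta subunits (Psmb genes), among them the proteases encoded by Psmb5, Psmb6 and Psmb7. The cap has a base, with the ring of Psmc ATPases that unfold the substrate, and a lid, where the deubiquitinase encoded by Psmd14 removes the ubiquitin chain; Psmd4 encodes a ubiquitin receptor. When proteasome capacity falls short, the transcription factor NRF1 (Nfe2l1) is released from the endoplasmic reticulum and, with small Maf proteins, activates proteasome genes through antioxidant response elements.

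All 34 genes had a value on every array, with no blank cell. Levels are log2 intensities, and a change is a difference of log2 levels from limma, with its standard error (SE) and an adjusted p over all genes of that comparison. A gene was called at an adjusted p under 0.05. The hepatocyte markers summed to intensities of 53307 to 61211 in liver and of 277 to 834 in spleen, so the organ labels matched their markers. Spleen arrays fell apart by their number of blank cells: the 3 vehicle spleens without wood and drug rat 2005, also without wood, had 1778 to 1920, and the other 8 had 1021 to 1183. Among liver arrays, that of drug rat 2003 had the most blank cells (6060) and correlated least with the other livers (mean r 0.847, against 0.906 or more). These arrays are named beside the results they touch.

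In liver, none of the proteasome genes was called for the drug. The change over both housings ran from -0.25 to 0.14 among the 13 core subunits, with a median of -0.03, and from -0.23 to 0.12 among the 17 cap subunits, with a median of -0.01. The median over all 12683 genes tested was -0.02, and 0.812% of them were called. For every one of the 13 core and 17 cap subunits, the 95% confidence interval of the change lay within a 1.5-fold rise and a 1.5-fold fall. The 6 drug and 6 vehicle rats overlapped for all 34 genes, whereas 2.89% of all genes with a value on every liver array did not overlap. A single member had an unadjusted p under 0.05, the lid subunit gene Psmd7. The share of all genes at that cut-off is not given.

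The liver values of single genes show how narrow this range was. Psmd7 measured 9.63, 9.72 and 9.72 in vehicle rats without wood, 9.85, 9.68 and 9.81 in vehicle rats with wood, 9.48, 9.54 and 9.37 in drug rats without wood, and 9.40, 9.69 and 9.54 in drug rats with wood. The drug rats lay at the lower end, and the difference was -0.23 ± 0.07 (SE; 95% interval -0.40 to -0.06; adjusted p = 0.207). Psmb5, the chymotrypsin-like protease of the core, measured 10.58, 10.53 and 10.70, then 10.76, 10.80 and 10.60 in the vehicle groups without and with wood. It measured 10.61, 9.83 and 10.35 in drug rats without wood and 10.57, 10.56 and 10.54 in drug rats with wood. The lowest value was that of rat 2003, whose array stood apart. The change of Psmb5 was -0.25 ± 0.12 (adjusted p = 0.391), and -0.15 ± 0.08 without rat 2003 (adjusted p = 0.412). Among the other subunits of smallest p, Psma7 differed by -0.14 (interval -0.30 to 0.02), Psma2 by 0.14 (-0.05 to 0.33), Psmd3 by -0.17 (-0.39 to 0.05) and Psmd1 by -0.14 (-0.35 to 0.07). Psmb7, the trypsin-like protease, differed by -0.09 (-0.26 to 0.08), Psmd4 by -0.08 (-0.27 to 0.11) and Psmd14 by -0.06 (-0.27 to 0.14). Without rat 2003 no core or cap subunit was called either, and their changes ran from -0.25 to 0.13. Macrophage markers in liver summed to 2986 to 3948 in vehicle and 1237 to 2375 in drug rats, with 3 of 6 called lower, of the erythroid markers 1 of 4 (Alas2) was lower, and of the plasma cell markers 1 of 4 (Jchain, at -2.40; adjusted p = 0.038); their part in the liver values was not tested.

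In spleen, 12 of the 34 genes were called for the drug, 8 higher and 4 lower, where 55.0% of the 13614 genes tested were called, 26.9% higher and 28.1% lower. Called members of the core and of the cap went in both directions. The alpha subunits Psma3 and Psma5 and the protease Psmb7 rose and the beta subunit Psmb4 fell; in the cap Psmd1, Psmd12, Psmd14 and Psmd8 rose and Psmd13 and Psmd11 fell. The median change was 0.01 for the core, 0.03 for the cap and -0.02 for all genes; after centring of the arrays or quantile normalisation the core median was -0.01 or -0.03, and the cap median 0.01 or -0.02. The size of change was small: the median absolute log2 change was 0.12 for the members and 0.37 for all genes. None of the 34 differed by 1.5-fold, against 31.8% of all genes, dim ones included. Most members are well expressed: 33 of the 34 lie at or above the median level, where 70.5% of 6807 genes were called in a fit of these genes alone, 14 members among them. The direction of each of the 12 calls was the same in both housings. The calls were made on the mean of both housings, which favours such agreement, so it is no replication.

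**Figure D1:**
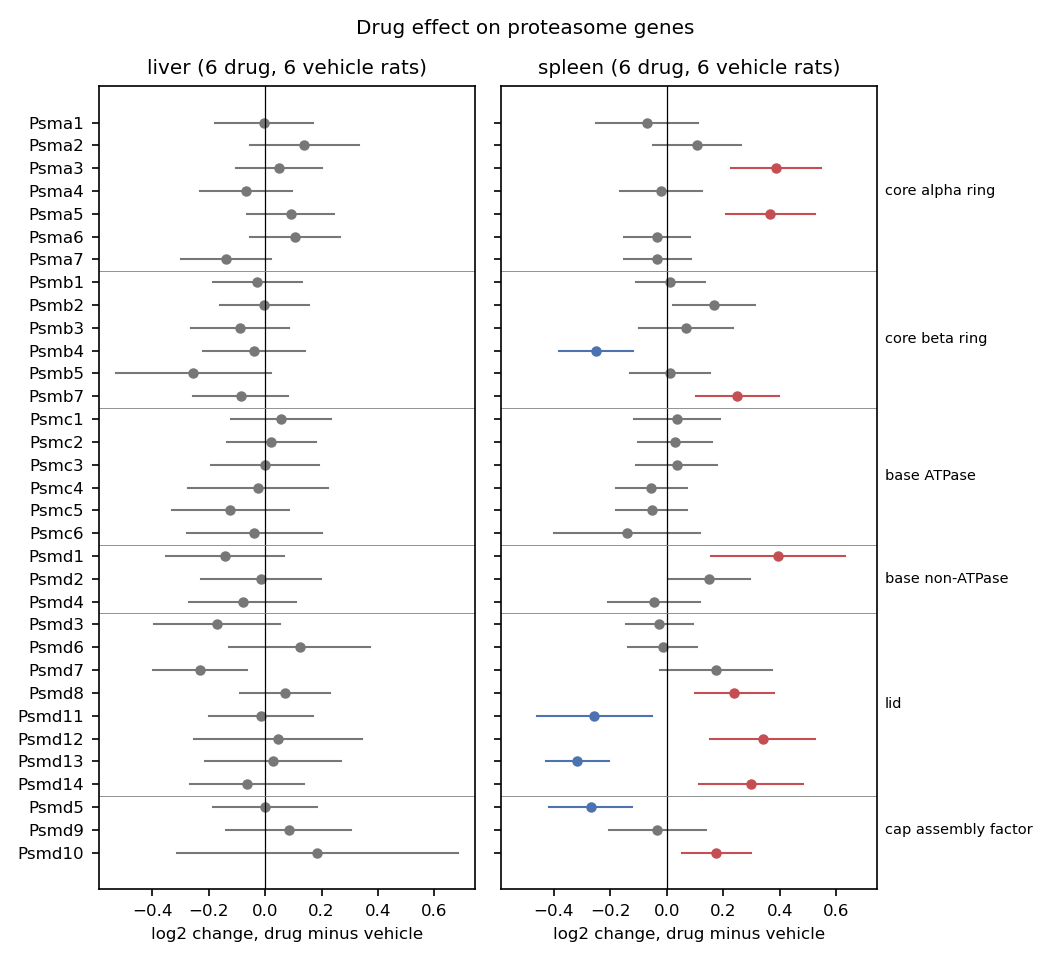
Change with the drug (log2, drug minus vehicle, mean of both housings) of 33 proteasome genes in liver (left) and spleen (right), ordered by their place in the complex. Points are estimates and bars 95% confidence intervals from limma; red and blue mark genes called higher and lower at an adjusted p under 0.05, and grey the rest. All 33 liver genes are grey, and in spleen 12 are coloured, 8 of them red, with no change beyond 0.39 in either direction.

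In the outer ring of the spleen core, 2 of 7 alpha subunits rose and none fell, where 55.0% of all genes were called. Psma3 measured 8.97, 8.91 and 9.05 in vehicle rats without wood and 8.75, 8.83 and 8.67 with wood, against 9.19, 9.22 and 9.43 in drug rats without wood and 9.31, 9.05 and 9.30 with wood. All 6 drug rats lay above the 6 vehicle rats, the nearest pair by less than the rounding of these values. The change was 0.39 ± 0.07, or 1.31-fold (adjusted p = 0.00109). Psma5 measured 10.73, 11.09 and 10.96 in vehicle rats without wood and 10.93, 11.15 and 11.06 with wood. The drug rats measured 11.39, 11.34 and 11.34 without wood and 11.28, 11.38 and 11.39 with wood, again all above the vehicle rats. Psma5 rose by 0.37 ± 0.07, or 1.29-fold (adjusted p = 0.00155). The other 5 alpha subunits changed by -0.07 to 0.11 and were not called.

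In the beta ring, Psmb7 rose, Psmb4 fell and 4 of 6 were not called, where 55.0% of all genes were called. Psmb7 measured 10.54, 10.41 and 10.49 in vehicle rats without wood and 10.84, 10.94 and 10.68 in drug rats without wood. With wood, it measured 10.62, 10.84 and 10.84 in vehicle rats and 10.88, 10.98 and 10.92 in drug rats. The groups separated within each housing but overlapped across them, and the change was 0.25 ± 0.07 (1.19-fold; adjusted p = 0.00934). With the division of spleen arrays by blank cells as a batch term the change was 0.18 and the call was lost (adjusted p = 0.0674). That term is set only by drug rat 2005 against the other drug rats without wood. The part of a batch-term change that comes from rats without wood thus rests on rat 2005, here and below. Psmb4, a subunit without protease activity, measured 11.996, 11.98 and 11.89 in vehicle rats without wood and 12.06, 12.09 and 12.12 with wood. In drug rats it measured 11.87, 11.73 and 11.65 without wood and 11.69, 11.82 and 11.87 with wood. Every drug rat was below every vehicle rat, and Psmb4 fell by 0.25 ± 0.06 on the log2 scale (adjusted p = 0.00484). Psmb5 measured 10.81, 10.80 and 10.75, then 10.63, 10.71 and 10.71 in the vehicle groups without and with wood, and 10.76, 10.86 and 10.83, then 10.70, 10.82 and 10.49 in the drug groups. These ranges overlap, with a change of 0.01 (interval -0.13 to 0.15; adjusted p = 0.903). Psmb2 was the nearest to the threshold among the rest, at 0.17 (0.02 to 0.31; adjusted p = 0.0522).

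In the base of the cap, none of the 6 ATPases was called, where 55.0% of all genes were. Their changes ran from -0.14 (Psmc6) to 0.04 (Psmc1). Nothing particular to a part of the complex is read from such counts. Of the 3 other base subunits, Psmd1, the scaffold of the base, rose. It measured 8.20, 8.30 and 8.16 in vehicle rats without wood, 8.71, 8.65 and 8.70 in vehicle rats with wood, 8.92, 9.03 and 8.35 in drug rats without wood and 8.95, 8.88 and 8.94 in drug rats with wood. Drug rat 2005, at 8.35, lay next to the vehicle rats of its housing. The change was 0.39 ± 0.11, or 1.31-fold (adjusted p = 0.00993). The 4 arrays with more blank cells held the 4 lowest values of Psmd1, at most 8.35 against at least 8.65, and with this division as a batch term the rise was 0.19 (adjusted p = 0.0297). Psmd4 measured 9.76, 9.77 and 9.62, then 9.77, 9.80 and 9.89 in the vehicle groups without and with wood, and 9.84, 9.90 and 9.53, then 9.62, 9.74 and 9.71 in the drug groups. It differed by -0.04 (-0.21 to 0.12; adjusted p = 0.633). Psmd2 differed by 0.15 (0.01 to 0.29; adjusted p = 0.0738).

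Promoters of these genes were read for the core letters of the antioxidant response element, TGACNNNGC on either strand, in the 250 bases before the start that the RefSeq promoter table gives for each gene (GRCr8). An entry existed for 30 of the 34 members, and for 11 of the 30 these bases overlap the gene's full RefSeq extent. The letters stood in 5 of the 30 (16.7%), those of Psma3, Psmb2, Psmb5, Psmd1 and Psmd9, and in 2793 of 27455 promoters of the same length (10.2%). CCAAT, on either strand, stood in 17 of 30 (56.7%) and in 34.3% of all. Of the 10 called spleen genes with an entry, 2 held the response element letters, as did 3 of the 20 that were not called. Below are Psma3 and Psmd1, which rose in spleen, Psmb5, which was not called, and Psmd13, which fell and has no match. Each is given 5′ to 3′ on the strand of the gene, with the matched letters in capitals.
Psma3, chr6:95219499-95219748, plus strand: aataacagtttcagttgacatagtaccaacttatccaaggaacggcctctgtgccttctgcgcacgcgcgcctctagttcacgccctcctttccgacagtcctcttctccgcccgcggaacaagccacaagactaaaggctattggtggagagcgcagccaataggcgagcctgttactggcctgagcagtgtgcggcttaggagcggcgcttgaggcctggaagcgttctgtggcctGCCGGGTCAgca
Psmd1, chr9:94157721-94157970, plus strand: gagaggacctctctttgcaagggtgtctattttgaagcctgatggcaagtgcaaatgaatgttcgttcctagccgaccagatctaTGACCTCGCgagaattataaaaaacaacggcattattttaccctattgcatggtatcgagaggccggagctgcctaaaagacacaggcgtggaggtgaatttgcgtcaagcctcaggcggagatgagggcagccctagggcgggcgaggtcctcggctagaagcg
Psmb5, chr15:32047380-32047629, minus strand: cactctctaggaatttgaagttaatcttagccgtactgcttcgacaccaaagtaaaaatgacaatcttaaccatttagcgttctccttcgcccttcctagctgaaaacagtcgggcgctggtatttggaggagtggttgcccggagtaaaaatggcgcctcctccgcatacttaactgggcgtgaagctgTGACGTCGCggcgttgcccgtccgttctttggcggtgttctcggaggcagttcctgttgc
Psmd13, chr1:205393998-205394247, plus strand: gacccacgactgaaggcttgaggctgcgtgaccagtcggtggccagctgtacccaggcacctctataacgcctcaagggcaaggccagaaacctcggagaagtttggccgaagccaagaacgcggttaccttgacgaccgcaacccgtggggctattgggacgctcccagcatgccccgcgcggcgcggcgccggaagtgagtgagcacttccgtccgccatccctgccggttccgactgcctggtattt
In Psma3 the letters lie 4 to 12 bases before that start, on the opposite strand; the full extent of Psma3 begins farther out, at base 95219714, so the letters (95219737 to 95219745) lie inside the gene. In the other 2, the start is that of the full extent: in Psmb5 the letters lie 52 to 60 and in Psmd1 157 to 165 bases before it, on the gene's strand. A match of letters is a description and no measure of binding.

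Of the 8 lid subunits 3 rose, 2 fell and 3 were not called, a share near the 55.0% of all genes called. Among the 2 falls is that of Psmd11, whose probe sets were called in opposite directions. Psmd12 measured 8.69, 8.67 and 8.55 in vehicle rats without wood and 8.82, 8.82 and 8.90 with wood, against 9.22, 9.19 and 8.82 in drug rats without wood and 9.04, 8.97 and 9.25 with wood. Rat 2005 again had the lowest value of the drug rats. The change was 0.34 ± 0.08 (1.26-fold; adjusted p = 0.00643), and 0.21 with the batch term (adjusted p = 0.0449). Psmd8 measured 9.38, 9.56 and 9.52 in vehicle rats without wood and 9.64, 9.67 and 9.85 in drug rats without wood. With wood it measured 9.19, 9.37 and 9.34 in vehicle rats and 9.53, 9.58 and 9.53 in drug rats. The treatments separated within each housing, with a rise of 0.24 ± 0.06 (adjusted p = 0.00867).

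Psmd14, the lid deubiquitinase, measured 9.75, 10.03 and 9.92 in vehicle rats without wood, 9.35, 9.27 and 9.22 in vehicle rats with wood, 9.98, 10.13 and 10.01 in drug rats without wood and 9.80, 9.93 and 9.51 in drug rats with wood. The 3 vehicle rats with wood were lower than all others. The drug change was 0.30 ± 0.08 (1.23-fold; adjusted p = 0.0113). Psmd13, a structural lid subunit, was the member with the smallest p. It measured 9.61, 9.68 and 9.61 in vehicle rats without wood and 9.50, 9.52 and 9.61 with wood, against 9.30, 9.30 and 9.36 in drug rats without wood and 9.28, 9.24 and 9.14 with wood. All 6 drug rats lay below all 6 vehicle rats. Psmd13 fell by 0.32 ± 0.05 on the log2 scale (adjusted p = 0.000424), to 0.803 of the vehicle level.

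Psmd11 measured 10.44, 10.57 and 10.45 in vehicle rats without wood, 9.98, 9.86 and 10.04 in vehicle rats with wood, 10.002, 9.99 and 10.47 in drug rats without wood and 9.72, 9.90 and 9.72 in drug rats with wood. The 4 arrays with more blank cells, at 10.44 to 10.57, lay above the other 8, at 9.72 to 10.04. Psmd11 fell by 0.26 ± 0.09 on the log2 scale (adjusted p = 0.036). This call was kept in 3 of 12 fits that left out 1 rat, where it ran from -0.34 to -0.22, and was lost with the batch term, at -0.10 (adjusted p = 0.282). The 9 rats whose removal ended it were 1001, 1003, 1005, 2001, 2003, 3001, 3005, 4001 and 4005. A second probe set of Psmd11 gave 0.17 (adjusted p = 0.0381), the opposite direction, so the array gives no single direction for this gene.

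Of the cap assembly factors, Psmd10 rose and Psmd5 fell. Psmd10, also known as gankyrin, measured 8.77, 8.79 and 8.73 in vehicle rats without wood and 8.61, 8.71 and 8.49 with wood, against 8.86, 8.88 and 8.99, then 8.81, 8.80 and 8.81 in the drug groups. All drug rats were above all vehicle rats, by 0.18 ± 0.05 on average (adjusted p = 0.02). Psmd5 measured 9.74, 9.96 and 9.72, then 9.73, 9.80 and 9.89 in the vehicle groups, and 9.57, 9.65 and 9.45, then 9.45, 9.56 and 9.54 in the drug groups. All drug rats were below, and Psmd5 fell by 0.27 ± 0.07 on the log2 scale (adjusted p = 0.00616). Psmd9 was not called (-0.03), nor was Psmc3ip (-0.24; adjusted p = 0.0885). Together with Psma3, Psma5, Psmb4 and Psmd13, these make 6 of 34 members whose drug and vehicle spleens did not overlap, 3 above and 3 below, whereas 31.2% of all genes with a value on every spleen array did not overlap.

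**Figure D2:**
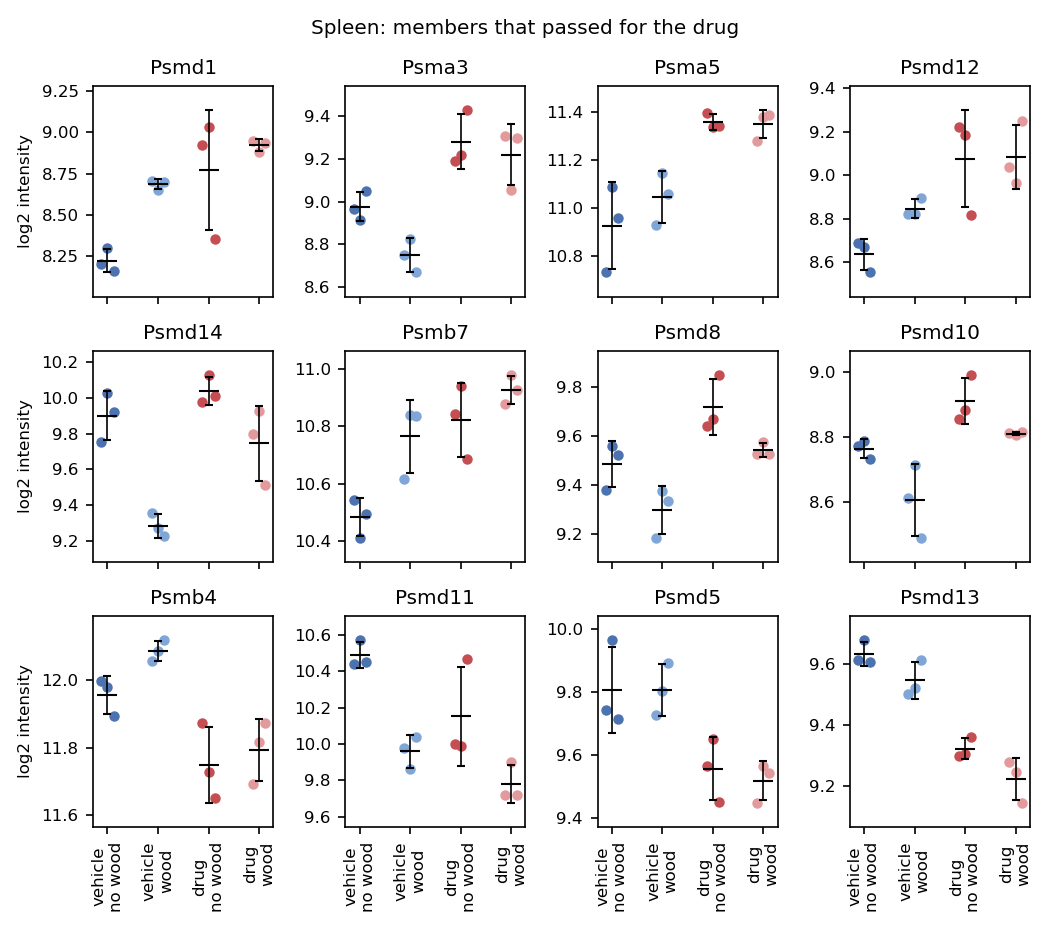
Level (log2 intensity) in each spleen of the 12 proteasome genes called for the drug, ordered from the largest rise to the largest fall. Each point is a rat, and bars are the mean ± SD of 3 rats; blue marks vehicle and red drug, each without and with wood, and axes differ between genes. Psma3, Psma5 and Psmd10 lie higher in all 6 drug rats and Psmb4, Psmd5 and Psmd13 lower, and in Psmd1, Psmd12 and Psmd11 drug rat 2005, without wood, lies nearer to the vehicle rats of its housing than the other drug rats do.

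Averaged over subunits, the complex changed little. The mean level of the 13 core subunits in spleen was 10.85 ± 0.07 (SD, n = 3) in vehicle rats without wood, 10.88 ± 0.05 in vehicle rats with wood, 10.96 ± 0.01 in drug rats without wood and 10.91 ± 0.02 in drug rats with wood. That of the 17 cap subunits was 9.87 ± 0.06, 9.76 ± 0.04, 9.92 ± 0.01 and 9.81 ± 0.03 in the same order. In liver the core means were 10.56 ± 0.05, 10.64 ± 0.02, 10.54 ± 0.11 and 10.61 ± 0.02, and the cap means 9.77 ± 0.04, 9.83 ± 0.09, 9.73 ± 0.13 and 9.81 ± 0.04. These averages are descriptions and carry no test.

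**Figure D3:**
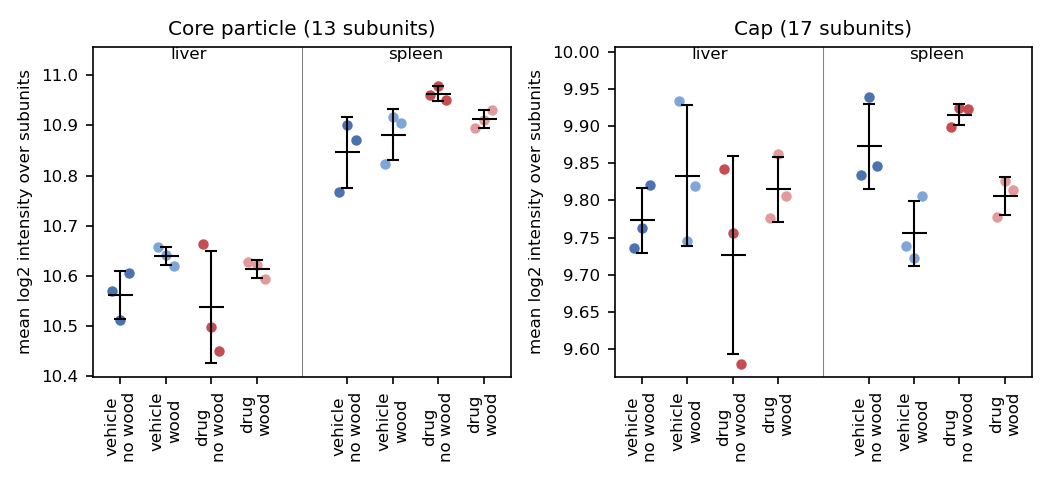
Mean log2 intensity per array of the 13 core subunits (left) and the 17 cap subunits (right), by organ and group. Each point is a rat, and bars are the mean ± SD of 3 rats; the axes do not start at 0. Group means of the spleen core run from 10.85 to 10.96, and the liver drug group without wood is the widest.

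Markers of several cell types in the spleen changed strongly beside these values. Summed marker intensities of B cells ran from 12663 to 16560 in vehicle rats and from 1438 to 2332 in drug rats, with 5 of 5 tested genes called lower. Erythroid markers ran from 7872 to 16696 and from 164 to 383, with 5 of 5 lower, and markers of dividing cells from 3236 to 7047 and from 1006 to 2237, with 7 of 7 lower. Macrophage markers ran from 13801 to 17663 in vehicle and from 26100 to 29671 in drug rats (6 of 6 higher), and stromal markers from 4295 to 5569 and from 10525 to 12325 (6 of 7 higher). T cell markers summed to 4335 to 6078 in vehicle and 3525 to 5798 in drug spleens, with 1 of 6 higher and 2 lower, and plasma cell markers to 10117 to 12062 and 5469 to 7152, with 2 of 4 lower. Exocrine pancreas markers ran from 224 to 864 in vehicle and from 440 to 13467 in drug spleens, with 1 of 5 tested genes, Cela1, called higher. The highest sum was that of drug rat 2003, without wood, and the other 5 drug spleens had 440 to 1176. Without this rat 11 members were called for the drug in spleen, in a fit whose share of all genes is not given. No marker of these lists was blank on every spleen array, and in liver only Epb42, Cd3d and Cd8a were. In bulk spleen, fewer cells of a type and less RNA per cell cannot be told apart, and the part of cell makeup in the proteasome values was not tested.

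Within each housing, 6 of the 34 genes were called. Without wood, Psma3, Psma5, Psmb7, Psmd1 and Psmd12 rose and Psmd13 fell, where 45.1% of all genes were called. With wood, Psma3, Psma5 and Psmd14 rose and Psmb4, Psmd13 and Psmd5 fell, where 38.4% were called. The change with wood is a difference between 6 arrays that all have few blank cells. Its SE and p also rest on the other spleen arrays, since all 12 share 1 estimate of the spread. Psma3 rose by 0.30 without and 0.47 with wood, Psma5 by 0.43 and 0.30, and Psmd13 fell by 0.31 and 0.32 on the log2 scale. Psmd13 kept both calls and Psma3 that with wood whichever rat was left out, as did Psma5 that without wood. With the batch term, the drug change without wood compares drug rat 2005 alone with the vehicle rats. It was -0.27 for Psmd13 and 0.42 for Psma5, whose calls were lost, as were those of Psmb7, Psmd1 and Psmd12. These losses rest on that rat and cannot settle the calls. The call of Psma5 with wood was lost with centred arrays (0.27; adjusted p = 0.0682) and quantile normalisation (0.24; adjusted p = 0.0962), and that of Psmd14 with the mean of all probe sets (0.18; adjusted p = 0.23). Psma3 lost its call without wood when rat 1001, 1003, 2003 or 2005 was left out, and Psma5 that with wood when 1005, 3001, 3005, 4001, 4003 or 4005 was. The count without wood was 2 when rat 2003, the spleen with high exocrine markers, was left out. With wood the count was 3 without rat 4001, 10 without rat 2005 and 10 with the batch term. Shares of all genes under these settings are not given, so the shifts are not read as particular to the members. No interaction of drug and wood was called among the members in either organ (limma, adjusted p under 0.05), where 0% of all genes were called in liver and 0.705% in spleen. At an unadjusted p under 0.05 there were 0 in liver and 1 in spleen, where shares of all genes are not given. The 1 was Psmb1, with a difference of drug effects of -0.29 (interval -0.53 to -0.04, limma adjusted p = 0.306). In liver the member of smallest p was Psmc3ip (1.15, interval -0.41 to 2.71). Without rat 2005, Psmd1 was called in spleen, its drug effect being lower with wood than without by 0.52 (adjusted p = 0.0212), against 0.31 with that rat (adjusted p = 0.542).

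Wood in the cage went with lower Psmd14 and Psmd11 in spleen, the 2 of 34 members called, where 12.1% of all genes were called and 6.05% lower. The wood difference was -0.45 ± 0.08 for Psmd14 (adjusted p = 0.014) and -0.45 ± 0.09 for Psmd11 (adjusted p = 0.0197). In vehicle rats alone it was -0.62 for Psmd14 and -0.53 for Psmd11, and Psmd7 was called as well, at -0.43 (adjusted p = 0.0453), where 15.1% of all genes were called. In vehicle rats the division by blank cells is the division by wood, so they cannot be told apart there. The batch term is set only by drug rat 2005 against the other drug rats without wood, so the values it gives hang on this rat. With the batch term the wood difference was -0.48 for Psmd14 (adjusted p = 0.282) and -0.14 for Psmd11 (adjusted p = 0.768), and neither was called. Other probe sets of the same genes gave 0.08 (adjusted p = 0.615) and -0.07 (adjusted p = 0.629) for Psmd14 and 0.04 (adjusted p = 0.708) for Psmd11. In liver no member was called for wood (limma), as was none of all genes (0%). At an unadjusted p under 0.05 there was 1, Psma3, at 0.16 (interval 0.01 to 0.31, limma adjusted p = 0.792). The share of all genes at that cut-off is not given.

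The division of the spleen arrays by blank cells ran through 6 of the 34 members without overlap. The 4 arrays with more blanks were higher in Psma7, Psmc5, Psmc6 and Psmd11 and lower in Psmd1 and Psmd12. Psmc6, for example, ran from 9.53 to 9.87 in these 4 arrays and from 9.11 to 9.44 in the other 8. The other 28 overlapped. The share of all genes divided in this way was not computed, so nothing particular to the members is read from this count.

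Psma3 has a further probe set that is shared with Psma3l and was left out. For 7 members the array has more than 1 probe set of their own. A further probe set could be fitted in spleen for 6 of them; for Psmc4 it could not, having blank cells throughout a group. For Psmd14 a second probe set gave a drug change in spleen of 0.26 (adjusted p = 0.0485) and the third, which is dimmer, 0.05 (adjusted p = 0.714), beside 0.30 for the one used. For Psmd7 the pair gave 0.17 (adjusted p = 0.132) and 0.18 (adjusted p = 0.134). For Psmc6 the 3 probe sets gave -0.14, -0.03 and -0.22, none of them called, and those of Psmb5 and Psmd9 were not called either. The pair of Psmd9 differed in sign, at -0.03 and 0.20 (adjusted p = 0.743 and 0.103). For Psmd11 both fitted probe sets were called, in opposite directions, and the third had a value on 1 of 12 spleen arrays.

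The drug effect was then compared between the organs of the same animals. It differed for 8 of 34 members, 6 higher in spleen than in liver and 2 lower, where 33.1% of 12474 genes were called, 18.4% higher and 14.7% lower. The difference was 0.54 ± 0.14 for Psmd1 (-0.14 in liver and 0.39 in spleen; adjusted p = 0.00667), 0.34 ± 0.09 for Psma3 (adjusted p = 0.00875) and 0.34 ± 0.10 for Psmb7 (adjusted p = 0.011). Psmd7, not called in either organ, differed by 0.40 ± 0.11 (-0.23 in liver and 0.17 in spleen; adjusted p = 0.00978). Psmd14 differed by 0.36 (adjusted p = 0.0258), Psma5 by 0.28 (adjusted p = 0.0293), Psmd13 by -0.35 (adjusted p = 0.0271) and Psmd5 by -0.27 (adjusted p = 0.0484). The count was 4 without rat 1001 and without rat 3005, and 5 without rat 4003 and without rat 4005. Shares of all genes in fits without 1 rat or with centred arrays are not given. No such change of count is read as particular to the members. Psmd1, Psma3, Psmb7 and Psmd7 were called in all 12 fits that left out 1 rat, and the other 4 in 2 to 7 of them. With centred arrays 4 members were higher and 3 lower; Psma5 (0.23; adjusted p = 0.0592) and Psmd14 (0.32; adjusted p = 0.0519) were no longer called.

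Between the organs of vehicle rats, 25 of the 34 members were called, 18 higher in spleen and 7 lower, where 79.5% of all genes were called, 59.2% higher and 20.2% lower. The scale sets this split: the median of all genes was 0.72 higher in spleen, and with arrays centred on their median 2 members were higher and 29 lower, with quantile normalisation 14 and 11. Psmd13 was the largest subunit difference. It measured 8.33, 8.52 and 8.48, then 8.48, 8.31 and 8.39 in vehicle livers without and with wood, below every vehicle spleen given above, by 1.17 ± 0.08 (adjusted p = 1.44e-10). Psmd8 went the other way, at 10.05, 9.97 and 10.09, then 10.29, 10.26 and 10.15 in vehicle livers, with a difference of -0.74 ± 0.06 (adjusted p = 2.44e-09). Psmc6 differed by -0.67, Psmd1 by -0.47 and Psmb2 by -0.22. Psmd13 was higher and Psmd8, Psmc6, Psmd1 and Psmb2 lower in spleen under every scaling tried. Psma3 differed by 0.66, Psma7 by 0.53, Psmb4 by 0.53, Psmc4 by 0.42 and Psmd6 by 0.41, all of which turned negative with centred arrays.

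The immunoproteasome subunits, which replace the 3 proteases of the core in lymphoid cells and after interferon, were set beside them. Psmb10 measured 10.46, 10.44 and 10.24 in vehicle spleens without wood and 10.30, 10.42 and 10.44 with wood, against 9.85, 9.98 and 10.01 in drug spleens without wood and 9.63, 9.87 and 9.62 with wood. The ranges do not overlap, and Psmb10 fell by 0.56 ± 0.07 on the log2 scale (adjusted p = 0.000104), while Psmb7, whose place it takes, rose. Psmb9 fell by 0.17 (adjusted p = 0.0419) and Psmb8 differed by -0.15 (interval -0.36 to 0.07; adjusted p = 0.221). In liver none of the 3 was called, with -0.09 for Psmb8, -0.14 for Psmb9 and 0.49 for Psmb10 (interval 0.00 to 0.97; adjusted p = 0.345).

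Genes of related lists were counted in spleen for the drug, where 55.0% of all genes were called, 26.9% higher and 28.1% lower; nothing particular to a list is read from its count. Of 5 genes tested for activators and the inhibitor of the proteasome, 4 fell and none rose, and the activator Psme4 was not called, at -0.17 (adjusted p = 0.0661). The inhibitor Psmf1 fell by 0.57 on the log2 scale (adjusted p = 0.000901), Ecpas, an adaptor of the proteasome, by 0.39 (adjusted p = 0.0064), and the activator subunits Psme1 by 0.25 (adjusted p = 0.011) and Psme2 by 0.25 (adjusted p = 0.00871). Psmf1 measured 9.998, 10.06 and 9.93, then 9.53, 9.76 and 10.14 in the vehicle groups, and 9.27, 9.38 and 9.17, then 9.26, 9.42 and 9.49 in the drug groups, with no overlap. Of 6 genes tested for assembly of the proteasome or its import, 2 were called. Psmg4 rose by 0.30 and Akirin2, which carries proteasomes into the nucleus, by 0.47 (adjusted p = 0.00135 and 0.00417). Of 11 genes for ubiquitin receptors, deubiquitinases and other proteins bound to the proteasome, 1 rose (Ubqln2, a shuttle receptor, 0.46) and 4 fell. The shuttle receptor Ubqln4 fell by 0.88, the deubiquitinase Uchl5 by 0.41 and the ubiquitin receptor Adrm1 by 0.36 on the log2 scale. Sem1, a small lid subunit outside the symbol rule, fell by 0.28. Adjusted p ranged from 1.23e-05 to 0.02 over these 5.

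Of the 10 genes of the NRF1 pathway, 4 rose and 3 fell in spleen, against the 55.0% called among all genes. Nfe2l1, which encodes NRF1, measured 9.30, 8.75 and 8.84, then 9.31, 9.13 and 9.12 in the vehicle groups and 9.84, 9.77 and 9.72, then 9.93, 9.89 and 9.80 in the drug groups, without overlap. It rose by 0.75 ± 0.10 (adjusted p = 0.000107), and its partner Mafg by 0.78 (adjusted p = 0.000263). Syvn1, the ubiquitin ligase that marks NRF1 for degradation, fell by 1.32 (adjusted p = 3.23e-07). Sel1l and Nfe2l2 rose by 0.56 each, and Mafk fell by 0.44 and Ngly1, the enzyme that removes sugars from NRF1, by 0.29. Both ubiquitin-activating enzymes fell, Uba1 by 0.31 and Uba6 by 0.58 (adjusted p = 0.00223 and 0.000311). Of 9 genes for p97, the ATPase that extracts ubiquitinated proteins, and its cofactors, 2 rose (Nsfl1c, 0.59; Ufd1, 0.29) and 2 fell (Faf1 by 0.36 and Plaa by 0.23).

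Subunits of other large complexes gave a comparison. All 8 subunits of the chaperonin TRiC, which folds actin and tubulin, fell in spleen, by 0.24 to 0.50 with a median change of -0.42, where 28.1% of all genes were called lower. Cct4 measured 12.01, 11.91 and 11.88, then 11.83, 11.76 and 11.80 in the vehicle groups and 11.43, 11.38 and 11.47, then 11.29, 11.29 and 11.35 in the drug groups, and fell by 0.50 ± 0.05 (adjusted p = 1.95e-05). All 8 were lower with centred arrays and after quantile normalisation as well, and 7 were called with the batch term. Of 9 subunits of the COP9 signalosome, whose architecture resembles the proteasome lid, 2 rose (Cops7a, 0.44; Gps1, 0.23), none fell and the median change was 0.00, where 26.9% of all genes were called higher; with centred arrays or quantile normalisation 1 fell. None of the genes of these pathway lists was called for the drug in liver.

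**Figure D4:**
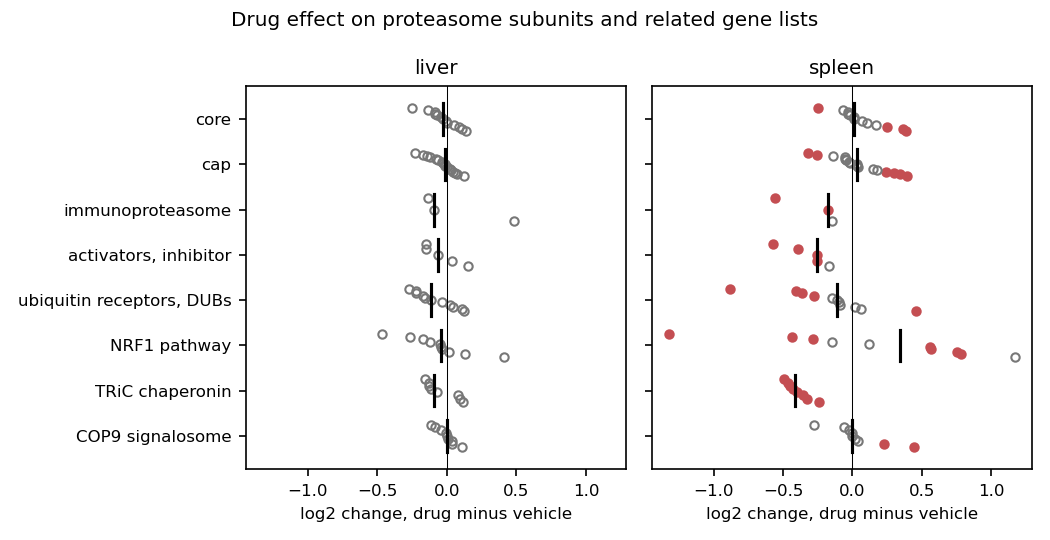
Change with the drug (log2, drug minus vehicle) of core and cap subunits and of 6 related gene lists in liver (left) and spleen (right). Each point is a gene, filled red where called at an adjusted p under 0.05 and open where not, and black lines are medians of the list. Core and cap medians lie at 0.01 and 0.03 in spleen, the TRiC median at -0.42, and no liver point is filled.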

How the data were processed

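Per the labels, 5 µg of total RNA of each organ was labelled and hybridised to a rat Affymetrix array. The authors deposited values taken here as log10 intensities: the middle 98% of values covers a 2143-fold range on that reading and a 10.1-fold range as log2. The base is thus inferred. How the probes were summarised and scaled is not stated in the labels or headers. All values were multiplied by log2(10), and blank cells (10.5%) were left missing. A single gene is named by 20792 of 30980 probe sets, several by 436 and none by 9752, and the probe set of highest mean over 24 arrays stood for each gene. Genes with a value in each group were tested.

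R 4.3.3 and limma 3.58.1 (lmFit, contrasts.fit and eBayes) fitted 4 group means per organ and 8 over both, with Benjamini-Hochberg adjustment over all genes tested at a threshold of 0.05. The drug change averages its changes without and with wood; the wood difference averages those under vehicle and under drug. The number of arrays, 3 per group, limits precision. The fit was tested on simulated data.

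The members and gene lists were chosen with earlier results of these data known. Genes named in the text were, besides Psmb5, Psmb7, Psmd4, Psmd14 and the immunoproteasome subunits, those called in spleen (up to 5 core and 5 cap subunits per direction), those of smallest p in liver, wood and interaction, the largest between organs and up to 3 per pathway list, most by size of the spleen change. Other called genes of these lists, the cap assembly factors, the members divided by blank cells, Psmb2 and Psmd2 were named after their values were seen. Liver and spleen of an animal carry its number per the labels; over 10530 genes the correlation of their deviations from the group means ran from -0.058 to 0.170. Alternatives were centring, quantile normalisation, filters on level and blanks, an offset of 16 with blanks at 0, the mean of all probe sets, other probe sets (chosen after seeing the data), trend and robust eBayes, leaving out each rat, a batch term for spleen arrays with over 1500 blanks, a fit of the 8 others, and the animal as a block. Promoters come from RefSeq (GRCr8), matched by gene ID.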

Additional observations from a re-analysis of the deposited data

Results flagged for a closer look

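The drug effect differed between spleen and liver of the same animals for 8 of the 34 proteasome genes, by the test of the difference itself (limma, adjusted p under 0.05). Of all 12474 genes tested, 33.1% were called, so the count is not particular to the proteasome. In spleen minus liver, the difference was 0.54 for Psmd1, 0.40 for Psmd7, 0.36 for Psmd14, 0.34 for Psma3, 0.34 for Psmb7 and 0.28 for Psma5. It was -0.35 for Psmd13 and -0.27 for Psmd5. Of 12 fits that left out 1 rat, Psmd5 kept its call in 2, those without 1005 and 2001. Psma5 kept it in 5 and lost it without 1001, 1005, 2005, 3001, 3005, 4003 or 4005. Psmd13 lost it without 1001, 3003, 3005, 4001 or 4005, and Psmd14 without 1001, 1005, 2003, 3005 or 4003. Centring ended the calls of Psma5 (0.23; adjusted p = 0.0592) and Psmd14 (0.32; adjusted p = 0.0519), the mean of all probe sets those of Psmd14 (0.13; adjusted p = 0.386) and Psmd5 (-0.27; adjusted p = 0.0605), and the offset of 16 that of Psmd5 (-0.26; adjusted p = 0.053).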

How the results depend on the processing

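The count of members called for the drug was 0 in liver and 10 to 14 in spleen under every alternative run. Of all genes in spleen, 55.0% were called in the main fit and 70.5% in the fit of genes at or above the median level. Shares of all genes under the other settings are not given, so no change of count below is read as particular to the members. For wood in spleen, the 2 calls became 5 with trend and robust eBayes and 0 with the batch term for blank cells. The batch term is set only by drug rat 2005 against the other drug rats without wood. For the drug without wood in spleen, the 6 calls became 10 among genes at or above the median level and 11 with trend and robust eBayes. With the batch term that comparison rests on rat 2005 alone. For the drug with wood, the 6 calls became 10 with the batch term. Leaving out 1 rat gave 2 to 7 for the drug without wood, 3 to 10 for the drug with wood, 0 to 1 for the interaction in spleen and 4 to 10 for drug by tissue. With the animal as a replicate block, the counts stayed at 8 for drug by tissue and 25 for tissue. Of the spleen drug calls, Psmb7 was lost with the batch term (0.18; adjusted p = 0.0674), Psmd14 with the mean of all probe sets and with its dimmest probe set, and Psmd11 as described. Psmd11 turned to 0.47 with the mean of all probe sets and 0.17 in another probe set, its wood difference to 0.31 and 0.035, and the wood difference of Psmd14 to 0.076 in another probe set. For tissue, centring turned Psma3 to -0.023, Psma7 to -0.15, Psmb4 to -0.15, Psmc4 to -0.26 and Psmd6 to -0.27, and the mean of all probe sets turned Psmc4 to -0.82. The mean of all probe sets takes in a probe set of Psmd11 with a value on 1 of 12 spleen arrays and one of Psmc4 with values on 8. The cause of the changes between settings was not tested, for these genes or for others. No member had a blank cell in the probe set used, so missing values do not limit the changes of members in the main fit. Further probe sets of Psmb5, Psmc4 and Psmd11 did have blank cells. Of 8 spleen arrays with few blanks only contrasts within wood or drug could be fitted.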
